A study of Homo sapiens with 12 samples.

Results

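Chemokine, interleukin and related cytokine genes were followed across 4 groups of cultured cancer cells. The genes were picked by name alone: every gene symbol made of CXCL, CCL or IL with a number (and, for interleukins, an optional letter), together with CX3CL1, TNF, LIF and CSF1 to CSF3. Of 57500 genes in the count table, 89 carried such a symbol. The pattern also takes in interleukin receptors whose symbol ends in R, and these are described apart from the ligands. SW480, a colorectal cancer line from a primary tumour, was compared with SW620, a line from a metastatic site of the same patient. Both were grown untreated in DMEM with fetal bovine serum and antibiotics. PEO4, an ovarian cancer line, was grown in RPMI 1640 with the same additions, either in control medium or with recombinant human TGF-β at 10 ng/mL for 6 days. Each of the 4 groups had 3 biological replicates, and RNA depleted of ribosomal RNA was sequenced from each. Each line stands for 1 tumour site of 1 patient, so the SW comparison is between a pair of lines and not between stages of disease. No drug-treated library was analysed here.

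Chemokines are small secreted proteins that draw leukocytes along a gradient through G protein-coupled receptors, and they are sorted by the spacing of their first cysteines into CXC, CC and CX3C families. Interleukins, colony-stimulating factors and TNF act on receptors that signal mainly through JAK and STAT proteins or through NF-κB. Epithelial tumour cells make some of these signals themselves, and many of the genes are known NF-κB or AP-1 targets whose transcripts are short-lived.

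Library totals ran from 14531420 to 22028956 counts. Levels are given as CPM, the count scaled to a library total of 1000000, and 3 counts in a library, the floor used below, equal 0.136 to 0.206 CPM. SW620 replicate 3 held reads of genes high in PEO4, called PEO4-like below. Over 32 such genes, picked for at most 5 counts in every other SW library, it stood at 1.27% of the PEO4 level. The pick itself keeps the other libraries low (at most 0.371%), so they are no contrast. With the same rule turned on each other SW library, 4 or 5 genes were found, at 0.219% to 0.797%. The source of these reads was not tested. At a share of 1.27%, PEO4 reads would make 25.3% of the IL15 counts in SW620 replicate 3, 23.1% for IL7, 18.5% for IL18, 12.3% for CXCL1, and under 10% for every other named member. By the same kind of pick, SW620 replicate 2 stood at 1.24% of the SW480 level over 15 genes high in SW480. SW480 replicate 2 stood at 1.89% of the SW620 level, though over 2 genes and 21 counts only. The line markers fitted the labels for CDX2, an intestinal transcription factor, at 20.3 ± 2.25 CPM in SW480 and 20.4 ± 1.84 in SW620 (SD, n = 3) and no PEO4 library held more than 3 counts of it. PAX8, a factor of the Müllerian lineage, stood at 509 ± 9.89 CPM in PEO4 control libraries against 48.8 ± 18.5 in SW480. Of 6 colorectal markers tested, 3 were higher and 1 lower in SW620, and of 6 Müllerian markers tested in PEO4, WT1, EMX2 and ESR1 were lower with TGF-β. The part of these lineage differences in the cytokine levels was not tested. Leukocyte markers summed to 2.61 to 4.42 CPM over 10 genes in SW480, 1.81 to 9.22 in SW620, 4.11 to 6.5 in PEO4 control and 5.48 to 6.87 with TGF-β. MS4A1, MPO and FCGR3A were at 0 in SW480.

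Few of the cytokine genes had transcripts at an appreciable level. In bulk RNA, fewer expressing cells and less RNA per cell cannot be told apart. A mean above 1 CPM in at least 1 group was reached by 31 of the 89 genes, and 7 passed it in all 4 groups. No count at all was found for 13 genes in any of the 12 libraries, among them IL2, IL3, IL17A, IL21 and IL22, which are made chiefly by lymphocytes, and CCL1, CCL8, CCL11, CCL13, CCL16, CCL18 and CCL19. A further group stayed near the floor, so that 38 of the 89 had no more than 3 counts in any library. None of the interferon-induced chemokines CXCL9, CXCL10 and CXCL11 passed 1 CPM. Over the 89 genes together the summed level was 335 ± 30.9 CPM in SW480 and 145 ± 5.09 in SW620 (SD, n = 3). In PEO4 it was 184 ± 33.4 CPM in control medium and 227 ± 25.9 with TGF-β. LIF, a member of the IL-6 family that signals through gp130, alone made up 36.5% of that sum in SW480, 34.4% in PEO4 control and 37.3% with TGF-β. In SW620 the largest share belonged to IL4R, the IL-4 receptor α chain, with 21.0%.

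**Figure D1:**
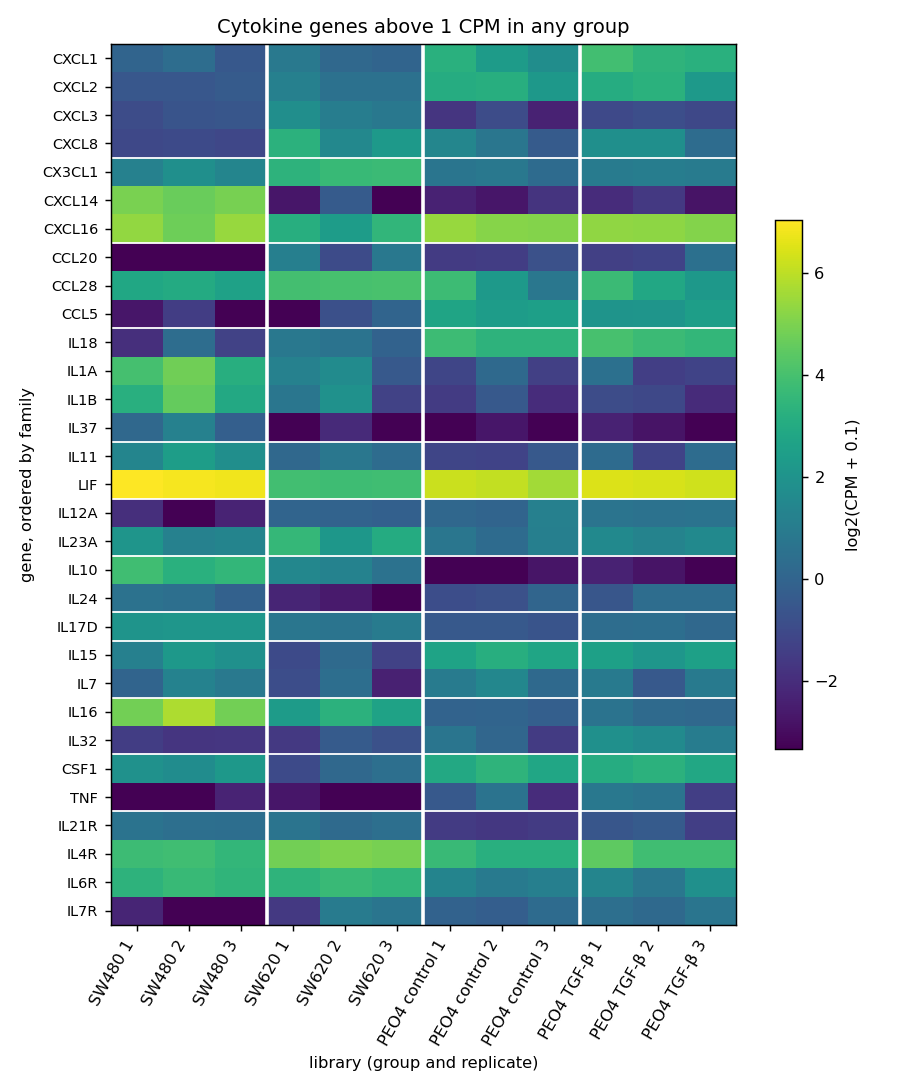
Level of the 31 genes above 1 CPM in any group (rows, ordered by family) in each of the 12 libraries (columns, by group and replicate), as log2(CPM + 0.1) by colour. LIF and CXCL16 are high in 3 of the 4 groups, with SW620 lower, whereas CXCL14, IL10 and the IL-1 genes stand out in SW480 and CCL5, CXCL2 and IL18 in PEO4.

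Compared between genes as CPM per kb of exon, the order of the most abundant transcripts differed from line to line. In SW480 the highest levels were those of LIF at 30.8 CPM per kb, CXCL14 at 14.7, CXCL16 at 13.2, IL1A at 8.21, IL10 at 5.46 and IL1B at 4.44. SW620 was led by the IL-23 subunit IL23A at 6.87 CPM per kb, followed by IL4R at 5.17, LIF at 3.64, CCL28 at 3.57 and CXCL16 at 3.02. PEO4 in control medium was led by LIF at 15.9 CPM per kb and CXCL16 at 13.5, with CXCL2 at 4.89, CXCL1 at 4.60, IL18 at 4.39 and CCL5 at 3.86 behind them. Under TGF-β the same 6 genes led PEO4, with CXCL1 at 8.97 CPM per kb behind LIF and CXCL16. PEO4 and the SW lines differ in tissue, donor and medium, so their levels are set side by side with no test.

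SW620 was compared with SW480 to ask how a metastatic line differs from its primary counterpart. SW620 had more CXCL8, CXCL3, CX3CL1, IL23A, IL4R and CCL28 RNA, and SW480 had more LIF, CXCL14, CXCL16, IL16, IL10 and IL-1 RNA. Counts were high enough for 29 of the 89 genes to be tested, and 60 were not tested. With edgeR's quasi-likelihood test and Benjamini-Hochberg adjustment over all 20941 genes tested, 8 of the 29 were higher in SW620, 13 were lower and 8 did not pass the threshold of 0.05. Of all genes tested, 30.5% passed, 13.5% higher and 17.0% lower, and of the 29 cytokine genes 72.4% did. The libraries of the 2 lines did not overlap for 21 of the 29, beside 46.0% of all genes, and an unadjusted edgeR p under 0.05 was reached by 21, beside 40.7%. The median size of the log2 fold change was 2.10 over the 29 and 0.53 over all genes, while the signed medians were −0.09 and 0.03. The filter enters into these counts, since 13 of the 29 reached it in 1 line only. Of those 13, 9 were called, each higher in the line where it reached the filter. They were CSF1, CXCL14, CXCL3, CXCL8, IL12A, IL15, IL1B, IL24 and IL37. The counts by family below include them and share this limit. Of the 15 that reached the filter in both lines, 12 passed the test. With the stricter demand of 10 counts in every library, 11 of 14 passed, beside 32.9% of 16250 genes. The authors' deposited table lists 30 of the cytokine genes, 22 of them with an adjusted p under 0.05, and 20 of these were also called by edgeR, the exceptions being CCL20 and IL7R on one side and IL12A on the other.

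**Figure D2:**
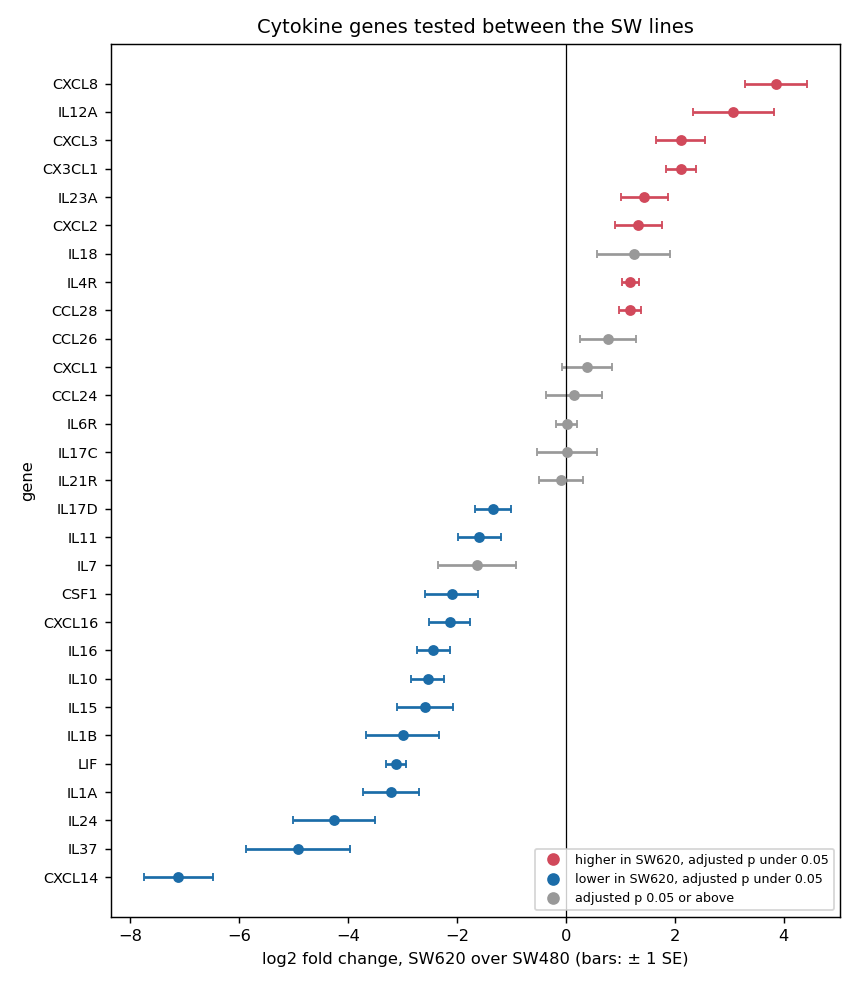
Log2 fold change of SW620 over SW480 for the 29 cytokine genes tested, with bars of 1 SE from edgeR's quasi-likelihood fit on 3 libraries per line, coloured by the call at an adjusted p of 0.05. Values run from −7.12 for CXCL14 to 3.86 for CXCL8, with 8 genes called higher and 13 called lower.

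Of the ELR CXC chemokines, which bind CXCR1 and CXCR2 and recruit neutrophils, 3 of the 4 members tested were higher in SW620. CXCL8 and CXCL3 reached the filter in SW620 only. CXCL8 (interleukin-8) had 0.379, 0.408 and 0.366 CPM in the SW480 libraries and 10.1, 2.75 and 4.58 in those of SW620. The groups did not overlap, and SW620 replicate 1 was the highest. The log2 fold change was 3.86 ± 0.57 (SE, edgeR adjusted p 0.000926), and 3.31 without that library. CXCL3 went from 0.433, 0.544 and 0.575 CPM to 3.34, 2.00 and 1.68, a log2 fold change of 2.11 ± 0.45 (edgeR adjusted p 0.00689). CXCL2 had 0.596, 0.612 and 0.679 CPM in SW480 and 2.21, 1.38 and 1.36 in SW620. Its libraries did not overlap and its log2 fold change was 1.33 ± 0.44 (edgeR adjusted p 0.0474), but the call was lost in 10 of 17 alternatives, among them DESeq2 with an adjusted p of 0.0794. CXCL1 overlapped between the lines, at 0.920, 1.22 and 0.627 CPM against 1.75, 1.03 and 0.908, and did not pass (log2 fold change 0.39 ± 0.46, edgeR adjusted p 0.585). Between the CXCL1, CXCL2 and CXCL3 transcripts, 4.81%, 12.5% and 6.01% of 50-base stretches are shared with other genes, so reads may have been divided among them. CXCL5 and CXCL6 were too low to test, with at most 10 and 15 counts in SW620 and at most 1 and 3 in SW480.

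These genes lie together. CXCL8, CXCL6, CXCL1, CXCL5, CXCL3 and CXCL2 occupy 359 kb of chromosome 4 (chr4:73740506-74099293 in GRCh38, GENCODE 29) with the platelet chemokine genes PF4V1, PF4 and PPBP, none of which exceeded 9 counts in these lines. The 3 called genes sit at both ends of the cluster, CXCL8 at the first position and CXCL3 and CXCL2 at 296 and 357 kb, and CXCL1 lies between them at 129 kb.

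The bases just before the RefSeq start of these genes show how alike they are. Of the 89 genes, 64 have an entry among the RefSeq promoters of GRCh38.p14, and the 250 bases before the start were searched on both strands for the NF-κB consensus, by its name, and for the AP-1 letters TGANTCA. The following stretches of 30 bases, read 5′ to 3′ on the strand of the gene with matches in capitals, come from the ELR chemokines. CXCL1 is at chr4:73869304-73869333 on the plus strand, CXCL2 at chr4:74099254-74099283 and CXCL3 at chr4:74038749-74038778 on the minus strand, and CXCL8 at chr4:73740420-73740449 on the plus strand.
CXCL1: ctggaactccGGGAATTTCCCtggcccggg
CXCL2: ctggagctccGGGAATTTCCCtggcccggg
CXCL3: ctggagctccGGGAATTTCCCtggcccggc
CXCL8: taggaagtgtgaTGACTCAggtttgccctg
The capitals of CXCL1, CXCL2 and CXCL3 are a pair of overlapping NF-κB matches, and those of CXCL8 are an AP-1 match. The search takes exact matches to the consensus only, so an NF-κB site of CXCL8 with other letters would be missed. Over these 30 bases CXCL1 and CXCL2 are identical at 29, CXCL1 and CXCL3 at 28, and CXCL2 and CXCL3 at 29. CXCL1, which did not pass the test, and CXCL2 and CXCL3, which did, have the same NF-κB letters here. The part of these letters in the calls was not tested. GENCODE 29 places the CXCL2 and CXCL3 stretches inside a first exon of a longer transcript, and those of CXCL1 and CXCL8 upstream of the gene.

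**Figure D3:**
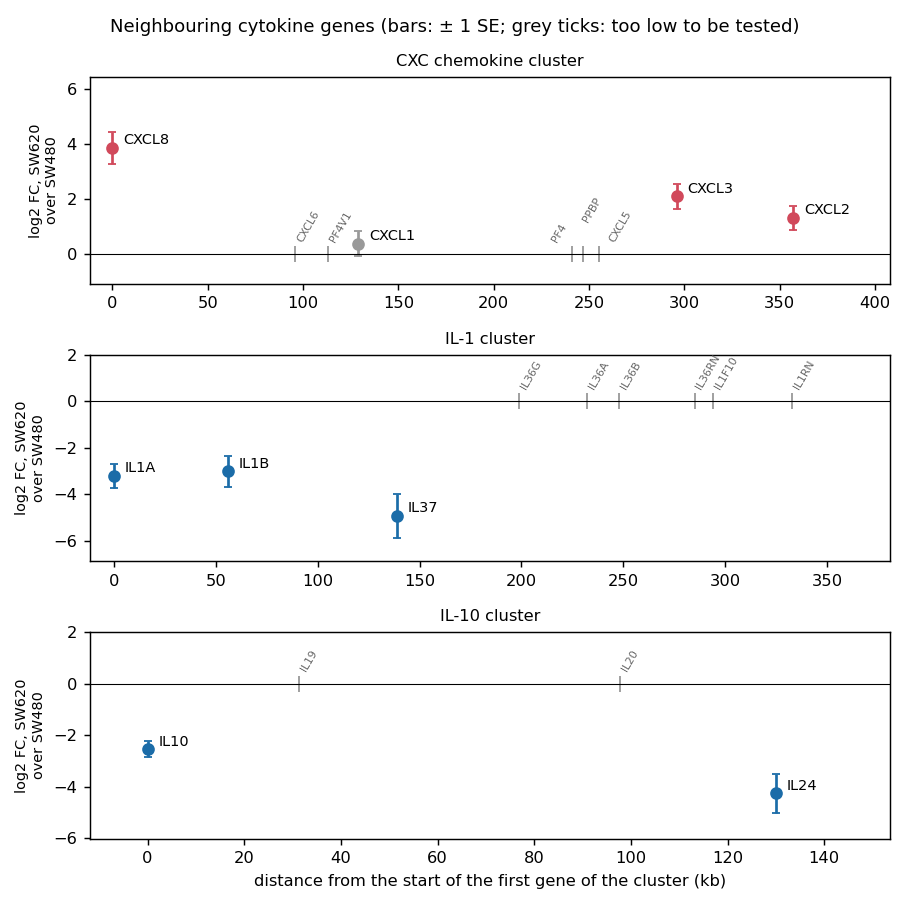
Positions along 3 gene clusters, in kb from the first gene, with the log2 fold change of SW620 over SW480 (bars of 1 SE, edgeR) for tested genes and grey names for genes too low to test. In the CXC cluster CXCL8, CXCL3 and CXCL2 stand above 0, while IL1A, IL1B and IL37, and IL10 and IL24, stand below it.

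Of the other CXC and CX3C chemokines, 3 of 6 were tested, 1 rose and 2 fell. CX3CL1 (fractalkine), a membrane-bound chemokine that is also shed, had 2.27, 3.47 and 2.56 CPM in SW480 and 10.4, 12.4 and 13.4 in SW620. Every SW620 library was above every SW480 library, with a log2 fold change of 2.11 ± 0.27 (edgeR adjusted p 0.000448). CXCL14, a chemokine of epithelia, showed the widest gap of the 29 tested genes: 31.4, 25.8 and 29.9 CPM in SW480 against 0.0566, 0.688 and 0 in SW620. Its counts were 580, 379 and 572 against 1, 10 and 0, and the highest of the last 3 is that of SW620 replicate 2. The part of SW480-like reads in that count was not tested. The log2 fold change was −7.12 ± 0.63 (edgeR adjusted p 5.23e-05), −9.74 without SW620 replicate 2 and −6.53 without SW620 replicate 3. SLC25A48, which shares exon bases with CXCL14 on the opposite strand, went from 6.42 ± 0.776 to 0.0569 ± 0.0117 CPM. Since the strand setting of the counting is not given, reads from the shared bases cannot be told apart. Of the 50-base stretches of CXCL14, 2.39% are shared with other genes. CXCL16, the ligand of CXCR6 and also a scavenger receptor, fell from 40.9, 26.6 and 43.3 CPM to 9.0, 5.16 and 11.1, without overlap (log2 fold change −2.14 ± 0.37, edgeR adjusted p 0.00216).

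Among 24 CC chemokines, 3 could be tested and 1 rose. CCL28, a mucosal chemokine that attracts antibody-secreting cells, went from 7.09, 8.02 and 6.01 CPM to 15.4, 16.2 and 16.7, the spread within each line being far smaller than the gap (log2 fold change 1.17 ± 0.20, edgeR adjusted p 0.00228). CCL24 and CCL26, the eotaxins, overlapped between the lines and stayed below 1 CPM in their means. CCL20, the ligand of CCR6, had no count in any SW480 library and 38, 6 and 37 counts in SW620, which is at least 8.11-fold higher when SW480 is set to the floor of 3 counts per library. It fell below the filter of the main test. Without a filter its edgeR adjusted p was 2.54e-06, where 18.1% of all genes passed, and DESeq2 gave 8.17e-06, where 23.3% did. CCL5 had 1, 4 and 0 counts in SW480 and 0, 7 and 20 in SW620, where PEO4 reads would make 7.25% of the 20, and was not tested.

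In the IL-1 family, 3 of 4 members tested were lower in SW620. IL1B and IL37 of these reached the filter in SW480 only. IL1A, an alarmin that acts when released from cells, had 15.6, 27.9 and 8.88 CPM in SW480 and 2.26, 3.10 and 0.636 in SW620, a log2 fold change of −3.21 ± 0.51 (edgeR adjusted p 0.00148). IL1B, which needs cleavage by caspase-1, had 9.31, 24.3 and 7.63 CPM against 1.58, 3.72 and 0.318, a log2 fold change of −3.0 ± 0.67 (edgeR adjusted p 0.00880). In each of these genes replicate 2 was the highest and replicate 3 the lowest in both lines, and no SW620 library reached the lowest of SW480. The IL1B call was lost without SW620 replicate 1 (edgeR adjusted p 0.0524), and its log2 fold change was −2.4 without SW480 replicate 2 and −3.77 without SW620 replicate 2. IL37, an inhibitory member of the family, had 19, 33 and 15 counts in SW480 and 0, 2 and 0 in SW620, at least 7.91-fold lower (edgeR adjusted p 0.00409). IL18, an inducer of interferon-γ, overlapped, at 0.162, 1.22 and 0.313 CPM against 1.70, 1.45 and 0.863 (edgeR adjusted p 0.207), and was called higher only in 4 of 17 alternatives. IL33 was at 0 in SW480 with 7, 6 and 1 counts in SW620 and was too low for the filter (edgeR adjusted p 0.0295 without it, DESeq2 0.0765).

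IL1A, IL1B and IL37 lie in a row of 9 IL-1 family genes and antagonists spanning 360 kb of chromosome 2, starting with IL1A at chr2:112773915-112784590. The 3 IL-36 genes of that stretch never exceeded 1 count in these lines. IL1RN, the soluble IL-1 receptor antagonist, had at most 8 counts in either SW line and was not tested there, against 1.52 ± 0.456 CPM in PEO4 control.

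Both tested members of the IL-6 family, whose receptors share gp130, were lower in SW620. LIF (chr22:30240447-30246851, minus strand) had 132, 120 and 114 CPM in SW480 and 14.8, 14.2 and 14.3 in SW620. The replicates of each line lay close together and the log2 fold change of −3.12 ± 0.18 (edgeR adjusted p 5.42e-06) ranged from −3.23 to −2.93 over 18 alternatives. LIF-AS1, an antisense transcript that shares exon bases with LIF, was also lower, at 2.76 ± 0.620 CPM in SW480 and 0.133 ± 0.0750 in SW620 (log2 fold change −4.37 ± 0.54, edgeR adjusted p 0.000351). Reads from the shared bases cannot be told apart without strand, and 4.28% of the 50-base stretches of LIF are shared with other genes. IL11 went from 2.54, 5.37 and 3.40 CPM to 1.02, 1.65 and 1.18, not overlapping, with a log2 fold change of −1.59 ± 0.39 (edgeR adjusted p 0.0136, and 0.0690 without SW620 replicate 1). IL6 itself was nearly absent from both lines, with at most 4 counts in a library.

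Both tested members of the IL-12 family were higher in SW620, at low counts for IL12A, which reached the filter in SW620 only. IL23A, which pairs with IL12B to form IL-23, had 4.17, 2.24 and 2.46 CPM in SW480 and 11.8, 4.34 and 8.31 in SW620. The lowest SW620 library was barely above the highest of SW480, the log2 fold change was 1.44 ± 0.44 (edgeR adjusted p 0.0351), and the call was lost in 6 of 18 alternatives, including limma-voom and the omission of SW480 replicate 2 or 3 or SW620 replicate 1 or 3. IL12A, the other subunit of IL-12, had 3, 0 and 2 counts in SW480 and 16, 13 and 18 in SW620, at least 5.00-fold higher against the floor (edgeR adjusted p 0.0121, 0.0569 without SW620 replicate 1 and 0.0575 without SW480 replicate 3). IL12B, the partner of both, did not pass 1 CPM in any group. It had 3, 7 and 0 counts in SW480 and 0 in every SW620 library.

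Both tested IL-10 family members were lower in SW620, and IL24 reached the filter in SW480 only. IL10, an anti-inflammatory cytokine usually made by leukocytes, had 14.5, 9.38 and 11.4 CPM in SW480 and 2.66, 2.34 and 1.41 in SW620 (log2 fold change −2.54 ± 0.30, edgeR adjusted p 0.000285), with a wide gap between the lines. IL24, which acts on epithelial cells, had 26, 19 and 16 counts in SW480 and 2, 1 and 0 in SW620, at least 6.90-fold lower (edgeR adjusted p 0.00261). IL19 and IL20, which lie between IL10 and IL24 in a cluster of 137 kb on chromosome 1, had at most 18 and 1 counts in SW480 and were not tested. In PEO4, IL10 never exceeded 2 counts.

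The remaining ligands that passed were all lower in SW620. IL16, a CD4 ligand cut from a larger precursor, had 28.6, 54.8 and 28.2 CPM in SW480 and 5.09, 9.91 and 6.22 in SW620 (log2 fold change −2.44 ± 0.30, edgeR adjusted p 0.000314). STARD5, which shares exon bases with IL16 on the opposite strand, did not pass (log2 fold change −0.05 ± 0.42, edgeR adjusted p 0.950). IL17D had 4.01, 4.28 and 4.23 CPM against 1.58, 1.51 and 1.86, with narrow groups that did not overlap (log2 fold change −1.35 ± 0.33, edgeR adjusted p 0.0127), a call lost without SW480 replicate 1, SW480 replicate 3 or SW620 replicate 1. Of its 50-base stretches 36.2% are shared with the antisense gene AL161772.1, which was lower too (log2 fold change −1.13 ± 0.29, edgeR adjusted p 0.0173). IL15, which sustains natural killer and memory T cells, had 2.17, 4.49 and 3.55 CPM against 0.396, 1.10 and 0.318 (log2 fold change −2.59 ± 0.52, edgeR adjusted p 0.00474). Without SW620 replicate 3, where PEO4-like reads weigh most, the log2 fold change of IL15 was −2.36. CSF1, the growth factor of macrophages, had 3.74, 3.19 and 4.54 CPM against 0.396, 1.03 and 1.27, also without overlap (log2 fold change −2.10 ± 0.49, edgeR adjusted p 0.0111). IL7 overlapped between the lines and did not pass (log2 fold change −1.63 ± 0.72, edgeR adjusted p 0.125). It was called lower in 3 of 17 alternatives, among them the fit without SW620 replicate 2 (log2 fold change −2.54, edgeR adjusted p 0.0223). TNF never exceeded 2 counts in these lines.

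**Figure D4:**
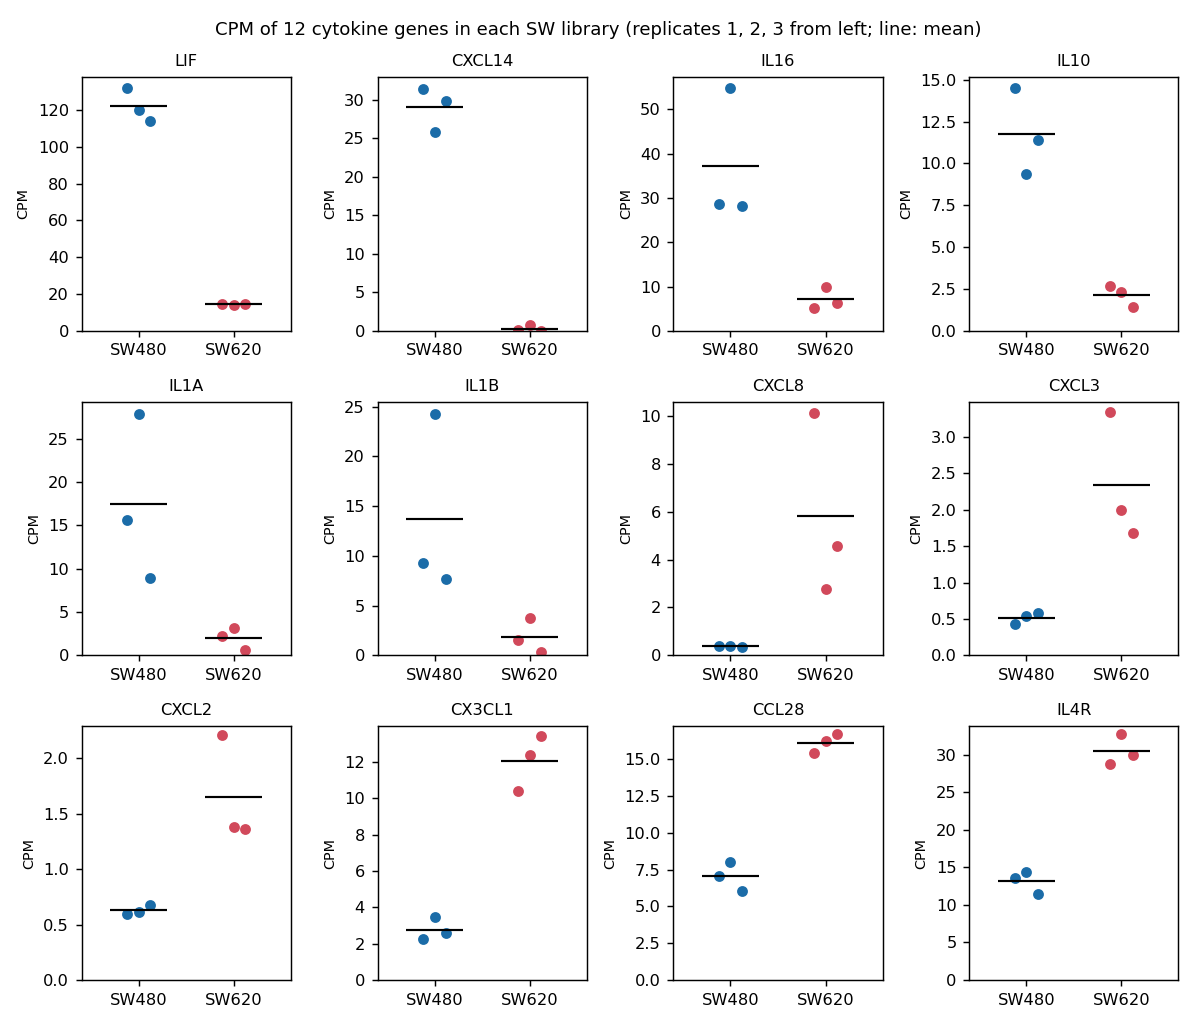
CPM of each library, on a linear axis from 0, for 12 cytokine genes called between SW480 and SW620, with 1 point per library (replicates 1 to 3 from the left) and a line at the group mean. None of the 12 overlaps between the lines, and LIF and IL4R show narrow groups where CXCL8 and IL1B spread widely within a line.

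Of the receptor genes caught by the name pattern, 3 were tested, 1 rose and 2 did not pass. IL4R, the shared α chain of the IL-4 and IL-13 receptors, had 13.5, 14.3 and 11.5 CPM in SW480 and 28.7, 32.7 and 30 in SW620, clearly apart (log2 fold change 1.18 ± 0.16, edgeR adjusted p 0.000663). IL6R overlapped, at 11.2 ± 1.18 and 11.6 ± 1.14 CPM (log2 fold change 0.01 ± 0.19, edgeR adjusted p 0.973). IL21R did not pass either (log2 fold change −0.09 ± 0.40, edgeR adjusted p 0.895). IL7R, the IL-7 receptor α chain of lymphocytes, had 2, 0 and 0 counts in SW480 and 4, 27 and 34 in SW620, below the main filter (edgeR adjusted p 0.000210 without a filter, DESeq2 0.00172). PTPRC, the pan-leukocyte marker, had 1, 1 and 0 counts in SW480 and 4, 50 and 108 in the same SW620 libraries, and its part in the IL7R counts was not tested. Fibroblast and endothelial markers were also higher in SW620, with a sum over 6 genes of 2.87 to 3.81 CPM in SW480 and 11.5 to 19.4 in SW620 and with LUM and PECAM1 called, and their part in the cytokine differences was not tested.

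Among the genes called higher in SW620, the NF-κB consensus was found for 5 of the 7 with a promoter entry (CXCL2, CXCL3, IL12A, IL23A and IL4R), among those called lower for 1 of 9 (IL17D), and among those not called for 1 of 5 (CXCL1). AP-1 letters were found for CXCL8 and IL23A among the first, and for CXCL14, IL11 and IL1A among the second. Of all 35116 promoters searched, 5.21% held the NF-κB consensus and 6.57% the AP-1 letters, and of the 64 cytokine promoters 23.4% and 20.3% did. Of the 23 promoters of genes above 1 CPM, 39.1% held the NF-κB consensus and 21.7% the AP-1 letters. These counts rest on few promoters, and a match is a run of letters and not a measured binding site. Among genes without an entry are CX3CL1, called higher, and LIF, CSF1, CXCL16 and IL15, called lower. Of the 5 with the NF-κB consensus called higher, CXCL3 and IL12A reached the filter in SW620 only. Only CXCL3 of the 5 was called in every alternative run for it. CXCL2 and CXCL3 are also near copies in the bases shown above. The part of NF-κB in these calls was not tested. A site that departs from the consensus is not counted. To show both kinds of match, stretches of 30 bases follow for IL23A (chr12:56338786-56338815, plus strand), IL12A (chr3:159988781-159988810, plus strand), CCL20 (chr2:227813753-227813782, plus strand), CXCL14 (chr5:135579066-135579095, minus strand), IL11 (chr19:55370542-55370571, minus strand) and IL1A (chr2:112784494-112784523, minus strand), with NF-κB or AP-1 matches in capitals.
IL23A: ggaGGGGAATCCCacctgctgTGAGTCAcc
IL12A: ggtggtgggcGGGGTGTCCCgcccgcctgt
CCL20: tgatcaatggGGAAAACCCCatgtggcaac
CXCL14: gagaaatctcagTGAGTCAccgagtggttc
IL11: aggcagggagggTGAGTCAggatgtgtcag
IL1A: acaaaaggcgaagaagacTGACTCAggctt
IL23A carries an NF-κB match followed by an AP-1 match, IL12A and CCL20 an NF-κB match alone, and CXCL14, IL11 and IL1A an AP-1 match alone within the stretch shown. The IL23A and CCL20 stretches lie in an intron of the GENCODE 29 gene model, that of IL11 lies upstream of the gene, and the IL12A, CXCL14 and IL1A stretches lie in an exon of at least 1 transcript.

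Lists of receptors and signalling genes around these ligands held 92 tested genes, of which 9 were higher and 30 lower in SW620 (42.4%, beside 30.5% of all genes). The filter enters into these counts as well, since some called genes had few counts in 1 line. In SW620 no library passed 2 counts for CCR3 and IL31RA or 4 for IL2RA, and in SW480 none passed 6 for IL1R2. How many of the 92 reached the filter in 1 line only was not counted. Of 23 chemokine receptor genes, 8 were tested, none was called higher and 4 were called lower. CXCR4, the CXCL12 receptor, stood at 27.9 ± 8.17 CPM in SW480 and 1.39 ± 0.866 in SW620 (log2 fold change −4.37 ± 0.51, edgeR adjusted p 0.000235). CCR7, a homing receptor for lymph nodes, went from 16.4 ± 3.15 to 1.02 ± 0.427 CPM. CCR3, the eotaxin receptor, went from 4.55 ± 1.05 to 0.0647 ± 0.0692 CPM. Of 27 cytokine receptor chains tested, 4 were higher and 9 lower. IL6ST, which encodes gp130, the signalling partner of the LIF receptor, went from 182 ± 38.0 to 49.0 ± 4.51 CPM, while LIFR stayed at or under 10 counts in each of these libraries. IL15RA, which presents IL-15, went from 46.6 ± 7.71 to 2.76 ± 0.242 CPM alongside IL15. IL31RA and IL2RA, receptor chains for IL-31 and IL-2, were lower too, with log2 fold changes of −5.37 and −3.68. IL20RA, a receptor chain for IL-24 and related ligands, went the other way, from 5.70 ± 0.610 to 35.0 ± 2.60 CPM, as did IL1R2, the decoy receptor of IL-1, and IL17RB, with log2 fold changes of 2.49 and 1.60.

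Inside the cell, 15 JAK, STAT and SOCS genes were tested, with none called higher and 7 lower. SOCS3, a feedback inhibitor induced by gp130 signalling, went from 18.2 ± 6.74 to 4.03 ± 0.871 CPM (log2 fold change −2.25 ± 0.35, edgeR adjusted p 0.00129). JAK3 and STAT5A fell as well, by 1.92 and 1.69 on the log2 scale. Of 26 NF-κB pathway genes, all tested, 2 were higher and 7 lower (34.6%, near the 30.5% of all genes). TNFAIP3 (A20), a feedback inhibitor and NF-κB target, rose from 2.62 ± 1.27 to 13.6 ± 2.54 CPM, as did CHUK (log2 fold change 0.55), whereas RELB and NFKB2, of the non-canonical arm, went from 21.5 ± 3.79 to 7.06 ± 1.04 and from 39.3 ± 3.10 to 13.7 ± 3.39 CPM. BCL3 fell by 1.30 on the log2 scale. Of 9 genes acting on cytokine mRNA stability, 2 were higher and 1 lower (33.3%, also near that share), namely TIA1 and ZFP36L2 higher and ZFP36L1 lower. The last 2 are related proteins that bind AU-rich elements, and they stood on opposite sides (log2 fold changes of 1.34 ± 0.23 and −1.16 ± 0.26). Of 7 inflammasome and antagonist genes tested, CASP4 was higher and PYCARD, the adaptor ASC, and CASP8 were lower.

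PEO4 cells with TGF-β were compared with PEO4 in control medium to ask what the treatment does to their transcripts. No cytokine gene passed the main test, which leaves out any pairing of replicates. With a replicate block CXCL1, IL32, IL4R and LIF passed, as given further below. That fit called 2102 genes in all, against 431 in the main fit. The estimates leaned upwards, with IL32, CXCL1, IL17D, IL23A, IL4R and LIF higher in their means under TGF-β and IL15 lower, by 1.35 to 3.11-fold. Counts were high enough to test 24 of the 89 genes, and 65 were not tested. By edgeR with Benjamini-Hochberg adjustment 0 of the 24 passed at 0.05, beside 2.26% of 19064 genes (1.27% higher and 0.991% lower). An unadjusted edgeR p under 0.05 was reached by 7 of the 24 (29.2%), beside 16.7% of all genes. DESeq2 called 3, beside 5.29% of the genes it tested, and limma-voom called 0. Without the filter edgeR called 4 (CXCL1, IL32, IL4R and LIF), beside 3.82%. The log2 fold change was positive for 21 of the 24 and for 47.7% of all genes, with medians of 0.42 and −0.02, while 8 of the 24 did not overlap between groups, beside 20.7%. The filter enters into these counts too. Of the 24, 19 reached it in both groups and 2 in neither group alone. The other 3, IL24, IL32 and IL6, reached it with TGF-β only, where each was higher in its mean. On simulated data with these libraries' spread the test found 59.6% of genes changed 2-fold, drawn at random from all genes tested. The share it would find among the 24 cytokine genes was not measured.

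IL32, a proinflammatory cytokine of epithelial and immune cells, had the largest estimate, and it reached the filter with TGF-β only. Its libraries stood at 1.54, 0.975 and 0.244 CPM in control medium and 3.56, 3.05 and 1.95 with TGF-β. The groups did not overlap but the control libraries differed widely among themselves, with replicate 3 the lowest, and the log2 fold change was 1.64 ± 0.53 (edgeR adjusted p 0.169, DESeq2 0.0241). IL4R had 13.1, 9.16 and 9.09 CPM in control medium and 22.1, 14.5 and 14.4 with TGF-β, where every treated library was above every control one (log2 fold change 0.71 ± 0.22, edgeR adjusted p 0.155, DESeq2 0.0278). In the authors' deposited table, IL32 and IL4R are the cytokine genes with an adjusted p under 0.05, at 0.0397 and 0.0409, with log2 fold changes of 1.64 and 0.71. CXCL1 had 9.56, 5.04 and 3.28 CPM against 15.0, 10.5 and 9.39, which overlap because control replicate 1 was higher than the lowest treated library (log2 fold change 0.97 ± 0.36, edgeR adjusted p 0.222, DESeq2 0.0400). Without control replicate 1 the edgeR fit called CXCL1, IL32 and IL4R, with adjusted p of 0.0166, 0.0496 and 0.0383, among 1080 genes called in all. The log2 fold change of IL32 was 2.29 in that fit and 1.17 without control replicate 3.

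LIF, the most abundant of these transcripts in PEO4, had 73.8, 67.3 and 48.7 CPM in control medium and 89.6, 85.8 and 78.1 with TGF-β, apart but close (log2 fold change 0.43 ± 0.16, edgeR adjusted p 0.224). IL23A, which was higher in SW620 than in SW480, had 1.59, 1.14 and 2.15 CPM against 2.97, 2.4 and 2.93 (log2 fold change 0.78 ± 0.28, edgeR adjusted p 0.209). IL17D had 0.648, 0.650 and 0.538 CPM against 1.22, 1.25 and 1.02 (log2 fold change 0.94 ± 0.34, edgeR adjusted p 0.209). IL15 was the one of these that was lower with TGF-β, at 6.28, 9.0 and 6.75 CPM against 5.84, 4.30 and 5.81 (log2 fold change −0.45 ± 0.20, edgeR adjusted p 0.292), and none of its treated libraries reached the lowest control.

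**Figure D5:**
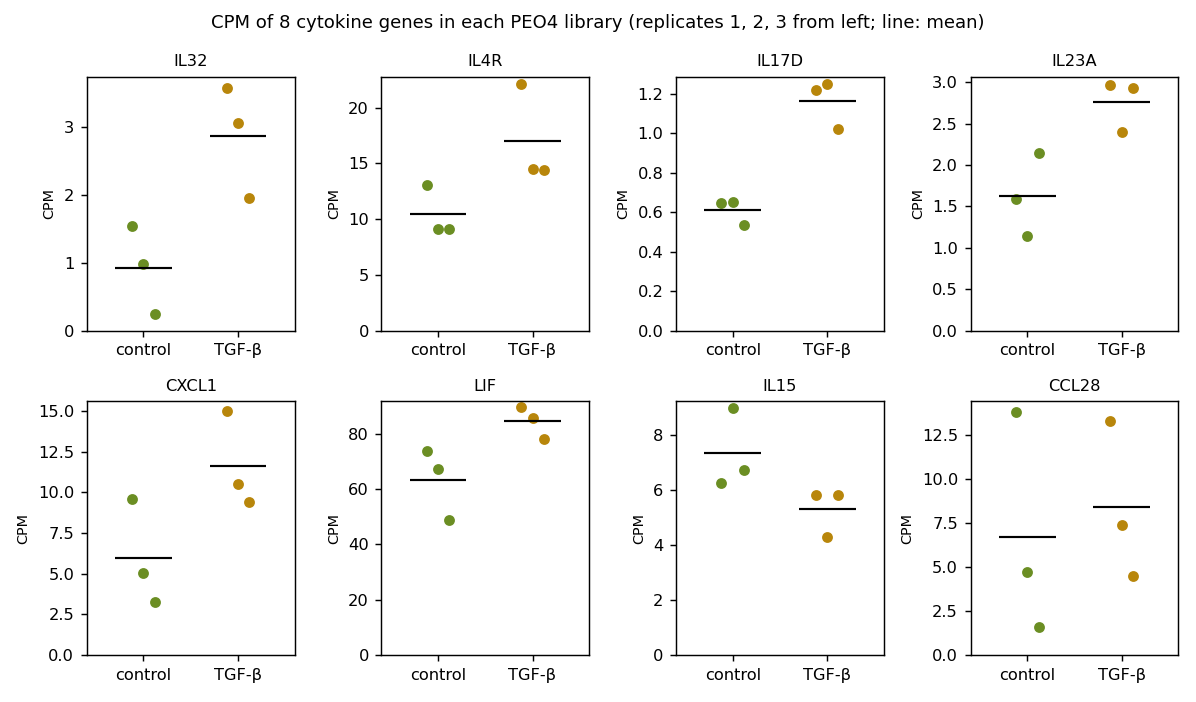
CPM of each PEO4 library, on a linear axis from 0, for 8 cytokine genes in control medium and with TGF-β, with 1 point per library (replicates 1 to 3 from the left) and a line at the group mean. Treated libraries lie above control ones without overlap for IL32, IL4R, LIF, IL23A and IL17D, and none of these genes passed edgeR's adjusted threshold in the main fit.

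Other abundant cytokine genes of PEO4 did not pass either. CXCL16, whose libraries overlapped, had 43.0, 35.4 and 34.8 CPM in control medium and 39.7, 39.2 and 34.4 with TGF-β (log2 fold change 0.02 ± 0.13, edgeR adjusted p 0.968), the smallest SE of the 24. CXCL2 lies in the same cluster as CXCL1 and is alike in the bases shown above. It had 8.52, 9.0 and 4.5 CPM against 8.47, 9.76 and 4.69, so that replicate 3 was low in both groups (log2 fold change 0.08 ± 0.34, edgeR adjusted p 0.932). CCL5 (RANTES), a T cell attractant, had 6.57, 5.20 and 5.72 CPM against 4.04, 4.16 and 5.48 (log2 fold change −0.34 ± 0.19, edgeR adjusted p 0.399). IL18 had 13.8, 10.4 and 10.4 CPM against 16.0, 13.2 and 11.7, overlapping (log2 fold change 0.26 ± 0.18, edgeR adjusted p 0.523). CSF1 stood at 8.31 ± 2.02 and 8.57 ± 1.28 CPM.

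Some genes varied more between PEO4 replicates than between treatments. CCL28 had 13.8, 4.71 and 1.61 CPM in control medium and 13.3, 7.4 and 4.51 with TGF-β, in the same order by replicate number in both groups (log2 fold change 0.32 ± 0.65, edgeR adjusted p 0.849). TNF had 13, 27 and 3 counts against 35, 32 and 6, lowest in replicate 3 of both (log2 fold change 0.65 ± 0.78, edgeR adjusted p 0.726). CXCL8 had 2.59, 1.57 and 0.684 CPM against 3.51, 3.51 and 1.16, again lowest in replicate 3 (log2 fold change 0.77 ± 0.54, edgeR adjusted p 0.524). IL11 had 7, 6 and 13 counts against 23, 7 and 25 (log2 fold change 0.98 ± 0.53, edgeR adjusted p 0.400), so 2 of 3 treated libraries were above all controls. Apart from these genes, IL6, IL7R, IL24, IL12A, IL7, IL16, IL6R and CX3CL1 had log2 fold changes between −0.40 and 0.70, none of which passed. For IL16 and CX3CL1 every treated library was above every control one.

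Of 95 genes tested in PEO4 from the lists of receptors and signalling genes, 2 were called (2.11%), which is close to the 2.26% of all genes. IL17RD, which encodes the FGF signalling inhibitor Sef, rose from 6.46 ± 0.987 to 11.1 ± 1.43 CPM (log2 fold change 0.79 ± 0.16, edgeR adjusted p 0.0384), among 28 receptor chains tested. BCL3, an IκB-like cofactor of NF-κB, fell from 30.4 ± 5.82 to 17.4 ± 1.21 CPM (log2 fold change −0.78 ± 0.13, edgeR adjusted p 0.0201), among 26 NF-κB genes. The NF-κB target TNFAIP3 did not pass (19.1 ± 4.51 and 17.4 ± 2.54 CPM, edgeR adjusted p 0.806). No JAK, STAT or SOCS gene, chemokine receptor, mRNA stability or inflammasome gene passed. LIFR and IL6ST, the 2 chains of the LIF receptor, stood at 11.9 ± 1.22 and 163 ± 11.0 CPM in control medium and at 11.5 ± 0.727 and 149 ± 10.5 with TGF-β.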

How the data were processed

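The count table gives, per the file headers, whole-number counts per Ensembl gene ID for 12 libraries, and its unit was checked on the values as deposited. The submitters' processing notes name the build GRCh38 and the tools Trimmomatic 0.36, STAR 2.5.2b, featureCounts, Subread 1.5.2 and DESeq2. The annotation, the strand setting and the handling of reads that match several places are not given in the sources used here. The authors' deposited tables of both comparisons hold a normalized signal per library, a log2 fold change, and p-values before and after adjustment, used here only where named.

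Gene positions, exon lengths and overlaps came from GENCODE 29 (GRCh38), in which all 89 symbols were found. CPM was the count divided by the library total and multiplied by 1000000. Genes passing filterByExpr were tested with edgeR 4.0.16 (quasi-likelihood, TMM factors, R 4.3.3) in each comparison on its own 6 libraries, 2-sided, with Benjamini-Hochberg adjustment over all genes tested and a threshold of 0.05. The SE is the log2 fold change divided by the square root of F. Alternatives used DESeq2 1.42.0, limma 3.58.1, other normalizations and filters, a replicate block, the omission of each library and a GC correction, the last chosen after seeing the data. On simulated SW counts the test recovered 23.4% of 2-fold and 74.2% of 4-fold changes, and on simulated PEO4 counts 59.6% and 93.9%. The changed genes were drawn at random from all genes tested and not from the cytokine genes alone. p-values measure the spread between replicates, which the labels call biological without saying how they were separated.

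Every member above a mean of 1 CPM in any group is named, and members at or under it only where they pass a test, or were chosen after their values were seen (CCL24, CCL26, CXCL5, CXCL6, IL6, IL12B, IL19, IL20, IL33, CXCL9, CXCL10, CXCL11, the IL-36 genes and those with no count). Of pathway lists, up to 3 called genes per direction are named. LIFR, IL6ST, IL1RN, PTPRC and the 3 clusters were also chosen after values were seen. The members and lists were chosen with earlier results of these data known. The intended rule for PEO4-like reads (50 CPM in every PEO4 library, at most 1 count in the other SW libraries) found 0 genes, so 20 CPM and at most 5 counts were used, chosen after seeing the data.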

Additional observations from a re-analysis of the deposited data

How the results depend on the processing

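Between SW620 and SW480, 21 cytokine genes were called by edgeR. The count was 11 with at least 10 counts in every library, where fewer genes are tested, 16 to 24 when each library was left out, and 14 to 23 under the other alternatives. Of the 21, 12 were called in every alternative run for them: CX3CL1, CXCL14, CXCL16, CXCL3, CXCL8, IL10, IL15, IL16, IL1A, IL24, IL37 and LIF. No named gene changed direction between SW alternatives while called. Over all genes, 6385 were called, 2504 against a 2-fold change and 4254 to 7419 when each library was left out (fewest without SW480 replicate 1, most without SW620 replicate 3). In PEO4, 0 cytokine genes were called, 3 by DESeq2, 4 without a filter and 0 to 3 when each library was left out (3 without control replicate 1). Over all genes of that comparison, 431 were called, 922 by DESeq2, 159 with all 12 libraries in the fit, 9 against a 2-fold change, 1457 without a filter, and 72 (without control replicate 2) to 1080 (without control replicate 1) when each library was left out. The cause of these differences was not tested. By correlation of their deviations, replicate numbers paired some samples and not others. Same-numbered samples had r of 0.0159, 0.67 and 0.567 in SW and 0.291, −0.14 and 0.481 in PEO4. Replicates 2 and 3 in SW and 1 and 3 in PEO4 correlated best with their own number, and the others did not. These values do not settle whether the replicates were paired, and the main fits leave a pairing out. With a replicate block, edgeR called 10667 genes and 23 cytokine genes in SW, and 2102 genes and 4 cytokine genes in PEO4 (CXCL1, IL32, IL4R and LIF). With the replicate block and the GC correction it called 11244 and 23 in SW, and 1815 and 5 in PEO4, CXCL8 being the fifth. Above 0.5 CPM 39 members would be named and above 2 CPM 23, in place of 31. PEO4-like reads in SW620 replicate 3 came to 1.27%, and to 1.38% and 1.21% under other rules for the genes used. At these depths a count of 0 limits a level only to about 0.136 to 0.206 CPM.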

Other observations

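IL36RN, which encodes the IL-36 receptor antagonist, stood at 1.90 ± 0.867 CPM in PEO4 control libraries and 1.64 ± 0.571 with TGF-β (SD, n = 3), while its agonists IL36A, IL36B and IL36G had no count in any PEO4 library. In SW480 and SW620 the antagonist had at most 3 counts. LUM, which encodes the matrix proteoglycan lumican, had 4, 6 and 5 counts in SW480 and 102, 102 and 231 in SW620.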
